A study of Mus musculus with 25 samples.

Results

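mmu-miR-143-3p, mmu-miR-145a-5p and mmu-miR-145a-3p, written below without the species prefix, are mature microRNAs (miRNAs) counted from a pair of neighbouring mouse hairpins, Mir143 and Mir145a. They were taken by name from a count table of mouse liver sEVs, small extracellular vesicles, which are particles with a membrane that cells shed. They are 3 of its 1493 entries, of which 1095 carry the name of a mature mouse miRNA. The study asked how the small RNA of these vesicles differs with age. The mice were 1 week or 6 weeks old, or 6, 12 or 14 months old, with 5 mice and 1 library per mouse at each of these 5 ages, 25 libraries in all. All mice were wild-type C57BL/6J with no treatment named, and the labels state that males and females were equally frequent, without the sex of each mouse. Vesicles were obtained from frozen liver with a tumour dissociation kit followed by ultracentrifugation, which gives a mixture from all cells of the organ. The batch label repeats the age, so age cannot be told apart from the handling of each age.

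miRNAs are short RNAs that bind messenger RNAs through their seed (bases 2 to 8) and lower their output. The miR-143 and miR-145 hairpins are processed from a shared precursor and are best known from vascular smooth muscle, where they favour the contractile state. In liver, cells of this kind are the smooth muscle of vessel walls, pericytes and, after injury, myofibroblasts that arise from stellate cells. Of each hairpin, the arm loaded more often into Argonaute is called the guide, here miR-143-3p and miR-145a-5p, and the opposite arm the passenger. miR-145 is known to act on Klf4 and Klf5, factors that oppose smooth muscle differentiation, and miR-143 on Elk1, a factor that competes with myocardin. miR-145a-3p is the passenger arm of Mir145a.

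Several miRNAs of other cells serve as partners below, and their mature sequences are shown so that their identity is plain. miR-199a-3p is known from stellate cells, miR-126a-3p from endothelium, and miR-29b-3p and let-7d-5p followed a member most closely across libraries. Sequences are from RefSeq (GRCm38.p6), 5′ to 3′, with the seed in capitals.
miR-199a-3p: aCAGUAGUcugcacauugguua
miR-126a-3p: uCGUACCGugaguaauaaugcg
miR-29b-3p: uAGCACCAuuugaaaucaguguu
let-7d-5p: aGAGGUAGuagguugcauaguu
The 4 seeds differ from each other. miR-199b-3p has the same mature sequence as miR-199a-3p and equal counts in 25 of 25 libraries, so both entries are 1 measurement.

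In mm10 both hairpins lie on the minus strand of chromosome 18. Mir145a (ENSMUSG00000065592.2) runs from 61647825 to 61647894 and Mir143 (ENSMUSG00000065445.3) from 61649196 to 61649258, with 1301 bases between them. In GENCODE M21 both lie outside Carmn, a long noncoding RNA gene of smooth muscle on the same strand that ends 366 bases before Mir143, while the RefSeq gene Carmn, from 61645878 to 61665538, spans both. No entry had counts within 0.3 log2 units of a member in every library, so none looked like a second entry of the same reads.

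Library totals ran from 641579 to 6888928 counts with the highest median at 1 week, where mouse 27 had the deepest library. The hepatocyte miRNA miR-122-5p was the most abundant entry and held 53.9% to 67.5% of the counts of each library, as the tissue label would have it. A table of miRNAs holds no protein marker of vesicles, and no listed miRNA is exclusive to smooth muscle, so neither the vesicle label nor a cell of origin of the members was checked. In such bulk material, fewer vesicles from a cell type and less of a miRNA per vesicle cannot be told apart. Nothing in the labels says more of the replicates than that they are separate mice.

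All 3 members were well counted. Levels are given as CPM (counts relative to the library total, per 1000000) scaled with TMM factors, which set most miRNAs of all libraries to a common level. miR-143-3p ranked 21 of the 1095 named miRNAs by mean CPM and held on average 0.496% of a library's counts. miR-145a-5p ranked 56, at 0.0483%, and miR-145a-3p ranked 132, at 0.00625%. Their lowest counts in a library were 2855, 244 and 32, all at 6 weeks, so counting error was least for miR-143-3p and largest for miR-145a-3p. These counts compare levels of short RNAs of 21 to 23 bases, which can ligate and amplify unequally.

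On the TMM scale miR-143-3p was lowest at 1 week and overlapped among the adult ages, while its share of raw counts was not lowest at 1 week. At 1 week the 5 libraries had 2422, 3066, 3071, 3494 and 4198 CPM, with mouse 27 lowest and mouse 1 highest. At 6 weeks they had 4658, 4794, 5185, 5705 and 5795 CPM. At 6 months they had 4438, 4886, 5126, 5231 and 5838 CPM. Every 6-week and 6-month library thus lay above every 1-week library. How many other entries separate ages in this way, here and for the other members below, was not counted. At 12 months the values were 4595, 5871, 6335, 6555 and 7092 CPM. At 14 months they were 4922, 5197, 5333, 5802 and 6452 CPM. The 12-month library of mouse 18 (4595 CPM) was the second lowest of all adults. The means were 3250 ± 654, 5228 ± 516, 5104 ± 512, 6089 ± 944 and 5541 ± 601 CPM from 1 week to 14 months (SD, n = 5 each). The order of the means was thus 1 week, 6 months, 6 weeks, 14 months and 12 months, and neighbours among the adult ages lay within their SD.

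miR-145a-5p stood lowest at 1 week and highest at 12 months. At 1 week the libraries had 174, 183, 213, 273 and 283 CPM. At 6 weeks they had 340, 437, 443, 526 and 544 CPM. At 6 months they had 496, 509, 534, 556 and 562 CPM, the narrowest spread of any age, with a coefficient of variation of 5.39%. The 6-month libraries overlapped those at 6 weeks. At 12 months the values were 611, 733, 745, 781 and 788 CPM, all above every 6-week and 6-month library. It is not known how common this was among other entries. At 14 months they were 449, 519, 538, 579 and 873 CPM. The 14-month library of mouse 25 was the highest of all 25, and the other 4 lay below every 12-month library. The means were 225 ± 50.5, 458 ± 81.4, 531 ± 28.6, 732 ± 71.1 and 592 ± 164 CPM from 1 week to 14 months. Their order was 1 week, 6 weeks, 6 months, 14 months and 12 months.

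miR-145a-3p, the passenger arm, also stood lowest at 1 week. The 1-week libraries had 13.5, 20.6, 25.9, 27.3 and 29.5 CPM, with mouse 27 lowest. At 6 weeks the values were 44.6, 46.0, 55.9, 58.7 and 63.9 CPM. At 6 months they were 49.97, 75.5, 88.0, 99.2 and 107 CPM. Only mouse 13 of the 6-month mice overlapped the 6-week range. At 12 months the libraries had 74.1, 81.3, 85.3, 113 and 119 CPM, all above every 6-week library. At 14 months they had 64.0, 70.5, 72.9, 93.9 and 97.8 CPM, the lowest of them level with the highest 6-week library. The means were 23.4 ± 6.42, 53.8 ± 8.29, 83.8 ± 22.3, 94.6 ± 20.2 and 79.8 ± 15.1 CPM from 1 week to 14 months.

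**Figure D1:**
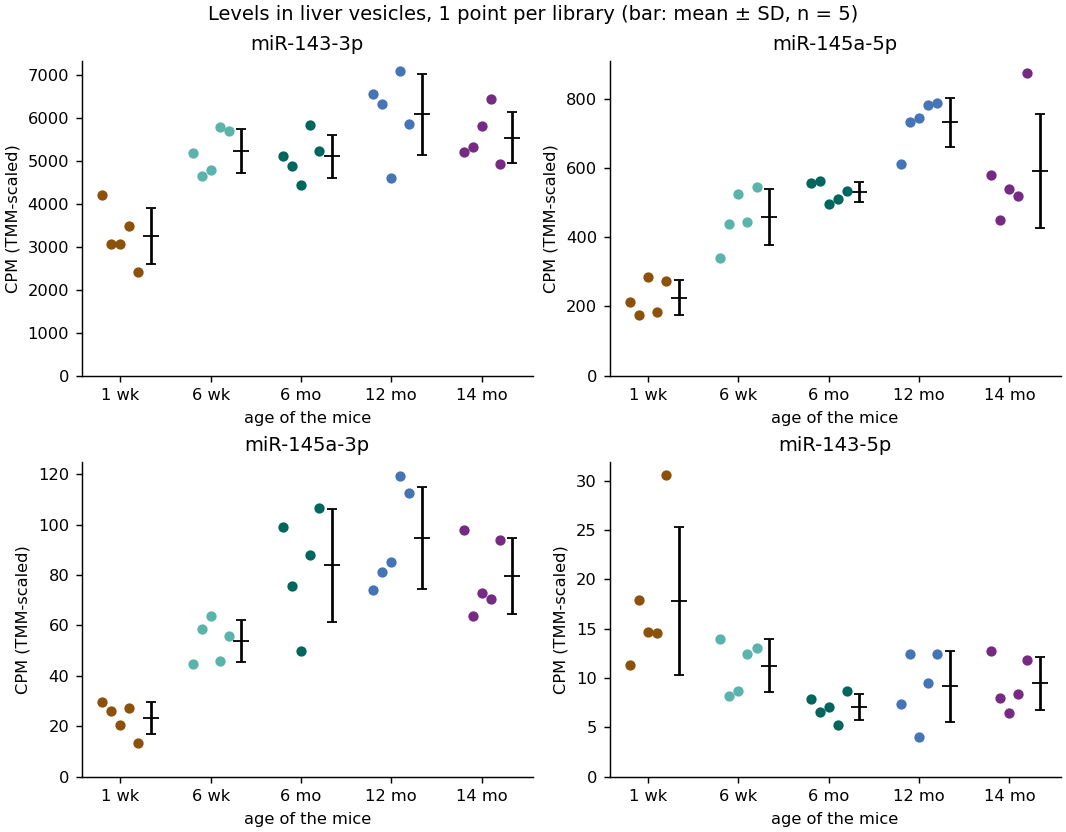
CPM (TMM-scaled, linear axes from 0) of the 3 members and of miR-143-5p in each library, by age from 1 week to 14 months; points are libraries and bars are mean ± SD (n = 5). On this scale the members are lowest at 1 week (not so for miR-143-3p in shares of raw counts, 0.508% at 1 week), miR-145a-5p has its highest mean at 12 months (732 CPM), and miR-143-5p has its highest mean at 1 week (17.8 CPM).

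All 3 members differed over the 5 ages, in edgeR's quasi-likelihood F test on counts with p adjusted over 391 tested entries by the Benjamini-Hochberg method (threshold 0.05). Such a difference was common, since 75.4% of tested entries passed. By edgeR the adjusted p was 2.62e-05 for miR-143-3p, 7.52e-08 for miR-145a-5p and 2.25e-07 for miR-145a-3p. The call of miR-143-3p was lost with DESeq2's size factors in edgeR (adjusted p = 0.0979), library totals (0.412), no filter (0.0665), DESeq2 (0.0780) and among adults only (0.280).

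At 6 weeks against 1 week all 3 members rose, beside 35.0% of tested entries that rose (71.9% passed in either direction). miR-143-3p rose 1.61-fold (log2 fold change 0.69 ± 0.14 SE, adjusted p = 8.27e-05, edgeR). miR-145a-5p rose 2.04-fold (1.03 ± 0.18, adjusted p = 1.16e-05) and miR-145a-3p 2.31-fold (1.21 ± 0.24, adjusted p = 6.80e-05). The median of the members was 1.03, against 0.12 for all tested entries. The SE was derived from the log2 fold change and its F statistic and is approximate.

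The 3 older ages also exceeded 1 week for every member, beside 36.8%, 33.2% and 35.5% of entries that rose at 6, 12 and 14 months (74.7%, 71.6% and 72.9% passed in either direction). For miR-143-3p the log2 fold changes against 1 week were 0.65 ± 0.14 at 6 months, 0.91 ± 0.14 at 12 months and 0.77 ± 0.14 at 14 months. For miR-145a-5p they were 1.24 ± 0.18, 1.70 ± 0.18 and 1.39 ± 0.18 at the same ages. For miR-145a-3p they were 1.85 ± 0.24, 2.03 ± 0.24 and 1.78 ± 0.24. The highest adjusted p of these 9 tests was 0.000145, for miR-143-3p at 6 months (edgeR). All 4 comparisons use the same 1-week libraries.

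How far the members stood above 1 week depended on the scaling. TMM factors were 1.30 to 1.78 at 1 week and 0.72 to 1.08 at the adult ages. With raw library totals the log2 fold change at 6 weeks against 1 week was 0.023 for miR-143-3p (adjusted p = 0.892) and 0.37 for miR-145a-5p (adjusted p = 0.0668). It was 0.54 for miR-145a-3p (adjusted p = 0.0384), which still passed. With DESeq2's size factors the values were 0.22 (adjusted p = 0.187), 0.57 (0.00496) and 0.74 (0.00681) for miR-143-3p, miR-145a-5p and miR-145a-3p. At the older ages, miR-143-3p passed against 1 week with DESeq2's size factors at 12 months (0.43, adjusted p = 0.0103), but not at 6 months (0.15, 0.363) or 14 months (0.27, 0.0984). With library totals its changes at 6, 12 and 14 months were -0.15, 0.094 and -0.16, none passing, while both miR-145a arms passed at each of these ages under either scaling. Library totals and DESeq2's size factors moved the median of all tested entries at 6 weeks against 1 week by -0.66 and -0.46. With library totals 88 entries rose and 178 fell in that comparison, against 137 and 144 with TMM factors. Relative to that median, miR-143-3p stood at 0.57, 0.56 and 0.57 with TMM factors, DESeq2's size factors and library totals. miR-145a-5p stood at 0.91, 0.91 and 0.92, and miR-145a-3p at 1.09, 1.08 and 1.09. A change of scaling shifts all entries of a comparison by nearly the same amount. The agreement of these values therefore follows from arithmetic and does not test whether a member rose. In shares of raw counts, miR-143-3p took 0.516% ± 0.062 at 6 weeks and 0.508% ± 0.129 at 1 week (SD, n = 5 each, exact permutation test, adjusted p = 0.961). miR-145a-5p took 0.0453% at 6 weeks and 0.0350% at 1 week (exact permutation test, adjusted p = 0.170). Against 1 week, passing shares were those of miR-145a-3p at 6, 12 and 14 months and of miR-145a-5p at 12 months (exact permutation tests, adjusted p = 0.0340 each, over 30 tests). Shares were tested for the members only, so how common such calls are is not known. In edgeR with library totals, 279, 278 and 286 of 391 entries passed against 1 week at 6, 12 and 14 months. Of these, 91, 76 and 80 rose. With each of the 25 libraries left out in turn, the call of miR-145a-3p was lost in 8 repeats at 14 months and in 5 at 6 months, each of the 5 being a 1-week mouse (exact permutation tests, adjusted p at most 0.0680). Its share was at most 0.00499% at 1 week, and at least 0.00541% at 6 months and 0.00507% at 14 months. The ages thus stayed apart in these repeats.

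**Figure D2:**
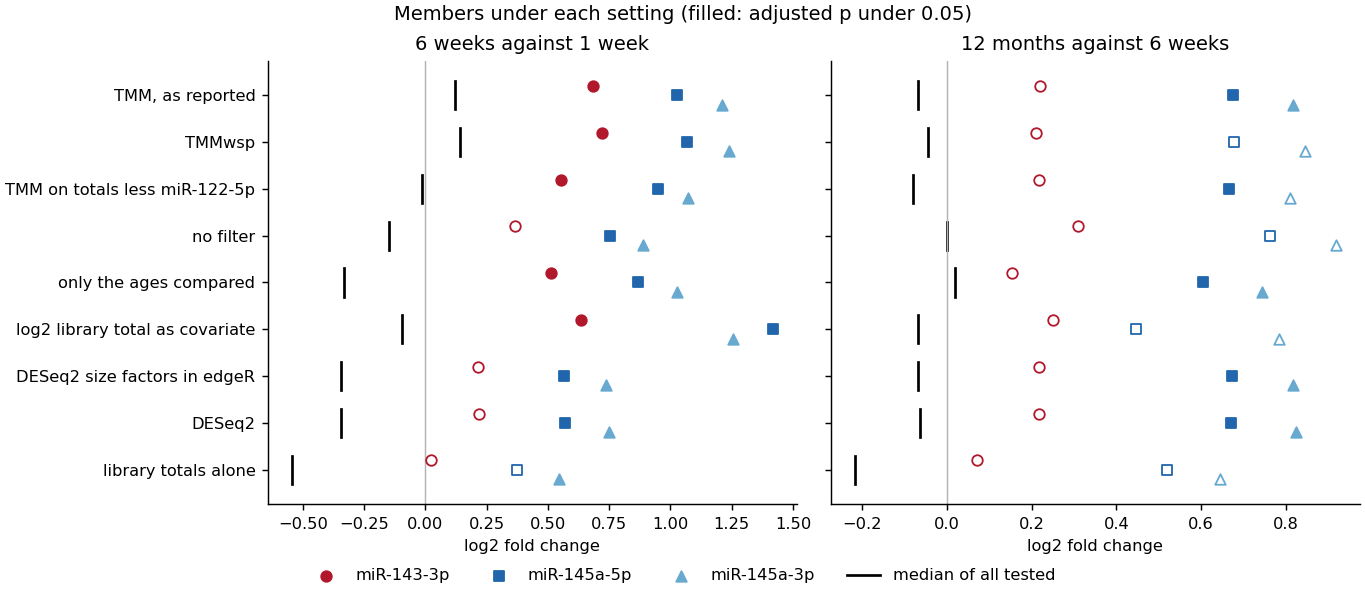
Log2 fold change (x axis) of the 3 members for 6 weeks against 1 week (left) and 12 months against 6 weeks (right) under each setting (y axis), with filled symbols where the adjusted p is under 0.05; black ticks give the median of all tested entries. On the left the members and the median move together, and miR-143-3p goes from 0.69 with TMM factors to 0.023 with library totals; on the right the positions move less, while several symbols of the miR-145a arms are open.

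Other markers also moved between these ages. The list of other smooth muscle and mesenchyme miRNAs is counted here without miR-199b-3p and miR-199b-5p, whose counts equal or nearly equal those of the miR-199a arms. Of its 8 tested entries (9 listed), 3 rose and 2 fell at 6 weeks against 1 week, with a median of 0.03. miR-100-5p (1.30) and miR-99a-5p (1.30) rose with miR-10b-5p (0.88), and miR-152-3p (-1.14) and miR-125b-5p (-1.57) fell. miR-100-5p and miR-99a-5p had nearly equal levels, with means of 21.4 and 20.9 CPM at 1 week and 52.3 and 51.1 CPM at 6 weeks. They are thus close to 1 measurement, yet the counts and medians of this list hold both. miR-199a-3p, at -0.067 ± 0.13, did not pass (adjusted p = 0.642). Against 1 week, 3 of the 8 rose and 3 fell at 6 months (median 0.11), and 5 rose and 2 fell at both 12 months (median 0.50) and 14 months (0.41). miR-199a-3p was among those that rose at 12 months (0.31, adjusted p = 0.0333, edgeR) and 14 months (0.30, 0.0396). At 6 weeks against 1 week, all 5 hepatocyte entries and 1 of 2 endothelial entries (miR-126a-3p, 0.90) rose. Falls were seen in 5 of 5 epithelial, 4 of 5 leukocyte, 3 of 4 erythroid and both tested striated muscle entries (6 listed). The 6 striated muscle miRNAs summed to 1.94 to 8.37 CPM at 6 weeks and 61.3 to 1128 CPM at 1 week, with miR-133b-3p and miR-208b-3p at 0 at 6 weeks. The 9 other smooth muscle and mesenchyme miRNAs summed to 4732 to 5702 CPM at 6 weeks and 7165 to 17773 CPM at 1 week. By mean, the largest entries of the 1-week sum were miR-152-3p (5572 ± 674 CPM) and miR-125b-5p (3499 ± 4149 CPM). The latter ran from 354 to 10352 CPM at 1 week and from 745 to 1730 CPM at 6 weeks. The endothelial pair summed to 44626 to 53622 CPM at 6 weeks and 21071 to 38902 CPM at 1 week. The 5 hepatocyte miRNAs summed to 668246 to 756076 CPM at 6 weeks and 399945 to 572121 CPM at 1 week. The epithelial sums were 354 to 463 CPM at 6 weeks and 846 to 1367 CPM at 1 week, the leukocyte sums 2162 to 2837 and 4964 to 5589 CPM, and the erythroid sums 165 to 485 and 308 to 819 CPM. The part of these cells in the members' change was not tested.

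Among adults, both arms of Mir145a rose at 12 months against 6 weeks, and miR-143-3p did not pass. Here 3.84% of tested entries rose and 5.63% passed in either direction. miR-145a-5p was 1.60-fold higher at 12 months (0.67 ± 0.17, adjusted p = 0.0165, edgeR) and miR-145a-3p 1.76-fold (0.82 ± 0.23, adjusted p = 0.0351). miR-143-3p differed by 0.22 ± 0.14 (adjusted p = 0.359). The median of the members was 0.67, against -0.07 for all tested entries. In shares of raw counts, which are levels scaled by the library total alone, miR-145a-5p took 0.0650% ± 0.0062 at 12 months and 0.0453% ± 0.0088 at 6 weeks. miR-145a-3p took 0.00829% ± 0.00088 at 12 months and 0.00531% ± 0.00087 at 6 weeks. Both differences passed, with no overlap between the ages (exact permutation tests, 5 against 5, adjusted p = 0.0340 each, the smallest raw p the design allows being 0.00794). Shares of other entries were not tested, so how many of them separate these ages is not known. The call of miR-145a-5p was lost without the 12-month mouse 17 (exact permutation test, adjusted p = 0.0680). The ages still did not overlap there, with shares of at least 0.0590% at 12 months and at most 0.0536% at 6 weeks. The loss thus came from the coarser p of a smaller test. In edgeR with library totals, the same scale as shares, neither arm passed (adjusted p = 0.0952 and 0.106).

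These adult calls were close to the threshold, and TMMwsp scaling (adjusted p = 0.0826 and 0.0723) and testing with no filter (0.0849 and 0.132) ended those of miR-145a-5p and miR-145a-3p. With library totals 9 entries rose and 11 fell, against 15 and 7 with TMM factors. That of miR-145a-5p was lost without the 6-week mouse 6 (adjusted p = 0.0538), with library totals (0.0952) and with depth added to the model (0.45, adjusted p = 0.171). That of miR-145a-3p was lost without any of the 6-week mice 6, 9 and 10 or the 12-month mice 19 and 20 (adjusted p = 0.0572 to 0.112), with library totals (0.106) and with depth added (0.136). Of the other markers, 1 of the 8 tested smooth muscle and mesenchyme entries rose (miR-152-3p, 0.63), and the list summed to 6367 to 8310 CPM at 12 months and 4732 to 5702 CPM at 6 weeks. Of 5 leukocyte entries, miR-142a-5p (0.90) and miR-155-5p (2.46) rose, and their sum was 2284 to 5097 CPM at 12 months and 2162 to 2837 CPM at 6 weeks. No hepatocyte, endothelial, epithelial, erythroid or striated muscle entry passed. Whether these cells had a part in the members' change was not tested.

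At 14 months against 6 weeks no member passed, beside 3.84% of entries that did. The log2 fold changes were 0.08 ± 0.14 for miR-143-3p (adjusted p = 0.713), 0.37 ± 0.17 for miR-145a-5p (0.202) and 0.57 ± 0.23 for miR-145a-3p (0.167). At 6 months against 6 weeks they were -0.03 ± 0.14, 0.21 ± 0.17 and 0.64 ± 0.24, with adjusted p of 0.957, 0.836 and 0.291, where 1.79% of entries passed. miR-145a-5p differed by 0.46 ± 0.17 at 12 months against 6 months (adjusted p = 0.582), by 0.16 ± 0.17 at 14 months against 6 months (0.840) and by -0.31 ± 0.17 at 14 months against 12 months (1). In these 3 comparisons 0 of 391 entries passed by edgeR and 0 by DESeq2, while 28, 30 and 8 had an unadjusted p under 0.05 in edgeR. The share of miR-145a-5p did differ at 12 months against 6 months, at 0.0650% against 0.0480% (exact permutation test, adjusted p = 0.0340). At 14 months it was 0.0482%, and the difference from 12 months did not pass (exact permutation test, adjusted p = 0.0952).

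Ratios of counts within a library do not depend on scaling. 9 ratios were compared between all 10 pairs of ages by exact two-sided permutation tests of log2 ratios, adjusted over 90 tests. In all, 19 passed, each with no overlap between the ages and an adjusted p of 0.0376. Ratios of other entries were not tested, so how common such a separation is remains unknown. With each library left out in turn, these 19 calls were lost in 47 of 475 repeats, at an adjusted p of at most 0.0974, and 7 of them were never lost. Leaving out a library keeps separate ages separate. Each loss of a ratio call with a library left out, here and below, thus came from the coarser p of a smaller test or from the adjustment.

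The ratio of the guides of the neighbouring hairpins was widely spread. There were 19.7, 17.7, 10.8, 19.1 and 8.89 counts of miR-143-3p per count of miR-145a-5p in the 1-week mice 1, 3, 4, 5 and 27. From 1 week to 14 months the ratio averaged 15.2 ± 5.02, 11.7 ± 2.43, 9.63 ± 1.11, 8.41 ± 1.72 and 9.94 ± 2.74. It ran from 5.64 in the 14-month mouse 25 to 19.7 in the 1-week mouse 1. No pair of ages passed after adjustment. The ratio at 12 months was lower than at 1 week by a log2 difference of -0.81 ± 0.27 (exact permutation test, p = 0.0317, adjusted p = 0.114). Without the 1-week mouse 27, that difference was -0.99 (exact permutation test, adjusted p = 0.0340), so 1 library decided the call.

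The ratio of the arms of Mir145a lay between 5.01 and 9.93 in all adult libraries. miR-145a-5p exceeded miR-145a-3p by 8.53 ± 1.09, 6.75 ± 1.99, 7.90 ± 1.09 and 7.40 ± 1.22 times from 6 weeks to 14 months. At 1 week the ratios were 7.22, 6.70, 13.8, 6.70 and 20.2 in mice 1, 3, 4, 5 and 27. Mice 4 and 27 thus stood above all other libraries in this ratio and below the other 1-week mice in the ratio of the guides. No pair of ages passed (smallest exact permutation p = 0.111, adjusted p = 0.250).

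The arms of Mir143 did change their proportion. miR-143-5p, the passenger arm, had 5 to 324 counts per library and means of 17.8 ± 7.49, 11.3 ± 2.64, 7.05 ± 1.31, 9.15 ± 3.57 and 9.47 ± 2.67 CPM from 1 week to 14 months. The 324 counts, 30.5 CPM, were those of mouse 27. miR-143-5p fell at 6, 12 and 14 months against 1 week (log2 fold changes -1.36 ± 0.33, -0.96 ± 0.32 and -0.92 ± 0.31, adjusted p = 0.000694, 0.00873 and 0.0109, edgeR). At 6 weeks against 1 week it differed by -0.66 ± 0.32 (adjusted p = 0.0699). In edgeR, the 14-month call was lost without the 1-week mouse 27 (-0.63, adjusted p = 0.0578) or the 14-month mouse 23 (-0.74, 0.0595), and the 12-month call without the 12-month mouse 18 (-0.60, 0.0952). Without the 1-week mouse 1, the 6-week change passed (-0.75, adjusted p = 0.0427). At 6 weeks there were 372, 571, 550, 468 and 436 counts of miR-143-3p per count of miR-143-5p. At 1 week there were 370, 171, 209, 240 and 79.3. The ranges are nearly adjoining, and the log2 difference was 1.31 ± 0.38, or 2.48-fold (exact permutation test, adjusted p = 0.0376). The nearest libraries, of the 6-week mouse 6 and the 1-week mouse 1, had 10 and 50 counts of miR-143-5p. With 1 count added to each arm they change order, the ages overlap, and the call was lost. The ratio averaged 752 ± 213 at 6 months, 752 ± 279 at 12 months and 632 ± 217 at 14 months, against 214 ± 106 at 1 week, and each of these passed. Each call against 1 week was lost in 5 of 25 repeats with 1 library left out. The ratio also passed at 6 months against 6 weeks, at 1.55-fold, and was lost there in 3 of 25 repeats. miR-145b, a related gene elsewhere on chromosome 18, had 2 counts in all 25 libraries and was not tested.

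Relative to miR-199a-3p, both guides were higher in adults than at 1 week. miR-143-3p had 4.20, 4.22, 4.63, 4.67 and 4.43 counts per count of miR-199a-3p at 6 weeks. At 1 week it had 2.82, 2.72, 2.31, 2.93 and 2.33. The difference at 6 weeks against 1 week was 0.76 ± 0.08 on the log2 scale, or 1.70-fold (exact permutation test, adjusted p = 0.0376). From 6 weeks to 14 months the mean ratios were 4.43 ± 0.22, 4.09 ± 0.19, 3.98 ± 0.43 and 3.65 ± 0.15. All adult ages passed against 1 week. It was lower at 14 months than at 6 weeks (-0.28 ± 0.04) and at 6 months (-0.16 ± 0.04), with all 5 of the 14-month libraries below all libraries of either age (exact permutation tests, adjusted p = 0.0376 each). Without the 6-month mouse 12, the difference from 6 months did not pass (exact permutation test, adjusted p = 0.0714). miR-145a-5p over miR-199a-3p averaged 0.392 ± 0.085 at 6 weeks and 0.185 ± 0.051 at 1 week, a 2.14-fold difference that passed, as did each older age against 1 week. The call at 6 weeks was lost in 8 of 25 repeats with 1 library left out, and those at 6 and 14 months in 1 and 5.

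Set against the endothelial and hepatocyte miRNAs, miR-143-3p showed no difference that passed. Over miR-126a-3p its log2 difference at 6 weeks against 1 week was -0.24 ± 0.15 (exact permutation test, adjusted p = 0.260). Over miR-122-5p it was 0.13 ± 0.18 (exact permutation test, adjusted p = 0.579). miR-126a-3p itself had 45464 ± 3786 CPM at 6 weeks and 24329 ± 6869 CPM at 1 week, and miR-199a-3p 1180 ± 107 and 1236 ± 177 CPM (SD, n = 5 each).

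Over each of these, miR-145a-5p was higher at 12 months than at 6 weeks. Per count of miR-126a-3p it had 0.0132, 0.0163, 0.0161, 0.0197 and 0.0183 counts at 12 months. At 6 weeks it had 0.00749, 0.00907, 0.0108, 0.0113 and 0.0119. The ages did not overlap, and the ratio was 1.66-fold higher at 12 months (log2 0.73 ± 0.16, exact permutation test, adjusted p = 0.0376). That call was lost without the 6-week mouse 6 or 7. Over miR-126a-3p, 12 months against 1 week (0.82 ± 0.29) and against 6 months (0.57 ± 0.13) did not pass (exact permutation tests, adjusted p = 0.0680 each). Over miR-122-5p, miR-145a-5p was 2.09-fold higher at 12 months than at 1 week, 1.51-fold higher than at 6 weeks and 1.38-fold higher than at 6 months (exact permutation tests, adjusted p = 0.0376 each). The call against 6 weeks was lost in 5 of 25 repeats and that against 6 months in 2, without the 12-month mouse 17 or 18. Over miR-199a-3p the difference at 12 months against 6 weeks was 0.32 ± 0.18 and did not pass.

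**Figure D3:**
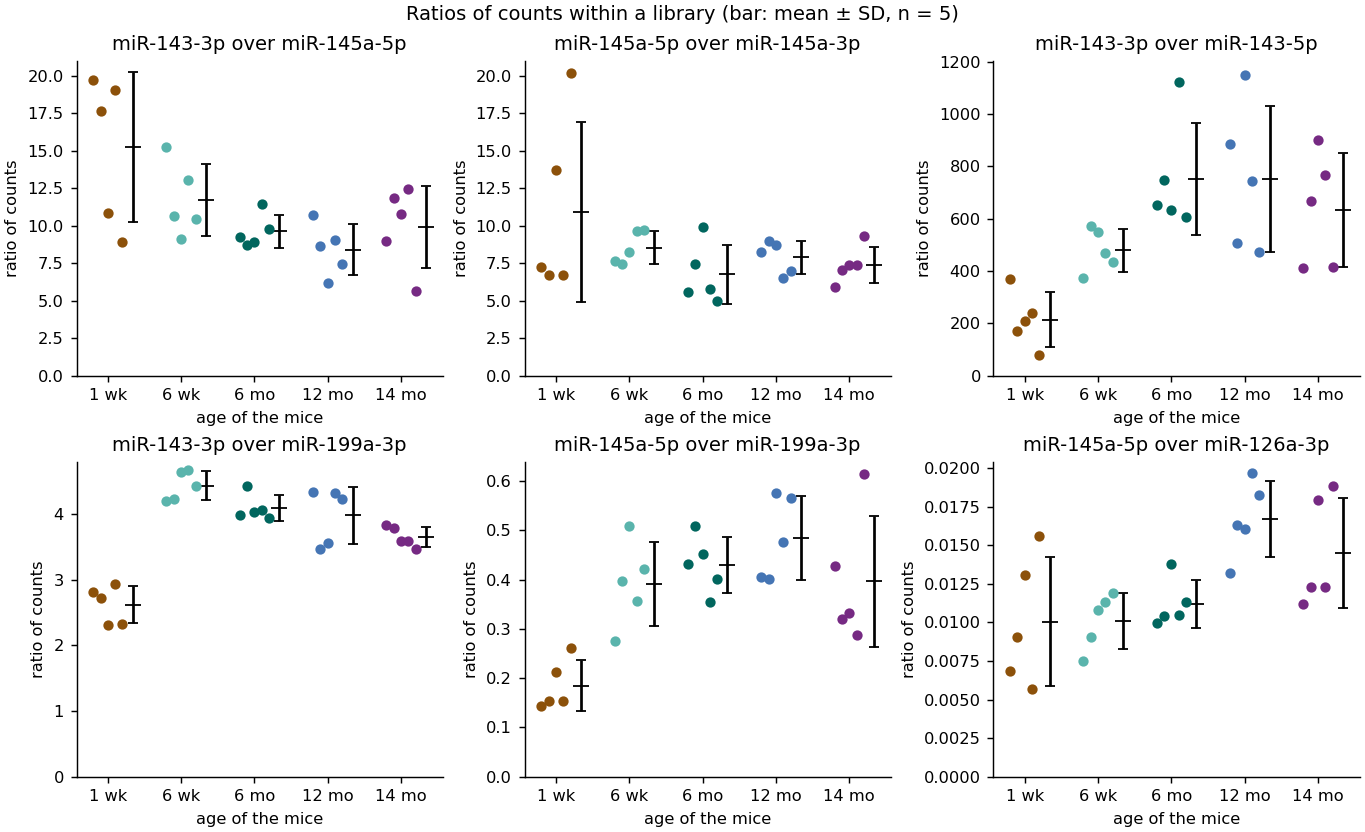
Ratios of counts within each library (y axes, linear from 0) by age; points are libraries and bars are mean ± SD (n = 5). miR-143-3p over miR-199a-3p separates 1 week (2.62 ± 0.29) from the adult ages, while miR-143-3p over miR-145a-5p overlaps between ages and is spread widely at 1 week.

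Within ages, the members did not follow each other closely. After the mean of each age was subtracted, log2 CPM of miR-143-3p and miR-145a-5p had Pearson's r = -0.29 over 25 libraries. miR-143-3p ranked 136 of the 140 abundant miRNAs (mean of at least 50 CPM) compared with miR-145a-5p, and miR-145a-5p 109 of those compared with miR-143-3p. On log2 shares, which are scaled by the library total alone, r for this pair was -0.092. Between miR-143-3p and miR-145a-3p r was 0.39, and between the arms of Mir145a 0.15, with 0.34 and 0.078 on shares. These are descriptions over libraries that share depth and scaling. With 1 library left out, the values on CPM ran from -0.35 to -0.18, from 0.18 to 0.44 and from 0.057 to 0.37, and mouse 27 moved each of them most. Without subtraction of the age means, miR-143-3p and miR-145a-5p had r = 0.74. On that measure r was 0.84 between miR-143-3p and miR-145a-3p, and 0.87 between the arms of Mir145a.

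Other miRNAs were closer to each member. miR-143-3p was most like miR-199a-3p (r = 0.83, with miR-199b-3p the same measurement), miR-3068-3p (0.78), miR-142a-3p (0.74) and miR-142a-5p (0.67). miR-199a-3p is known from stellate cells and fibroblasts, and the miR-142a arms from leukocytes. miR-145a-5p was most like miR-29b-3p (0.80), a repressor of collagen and other matrix genes. It was followed by miR-15a-5p (0.67), miR-322-5p (0.66), miR-103-3p (0.60) and miR-107-3p (0.59). The last 2 had mean counts of 806.4 and 806.16 per library, so they are close to 1 measurement. miR-145a-3p was most like let-7d-5p and let-7e-5p (0.80 each), let-7f-5p (0.77), let-7a-5p (0.74) and miR-22-5p (0.72).

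**Figure D4:**
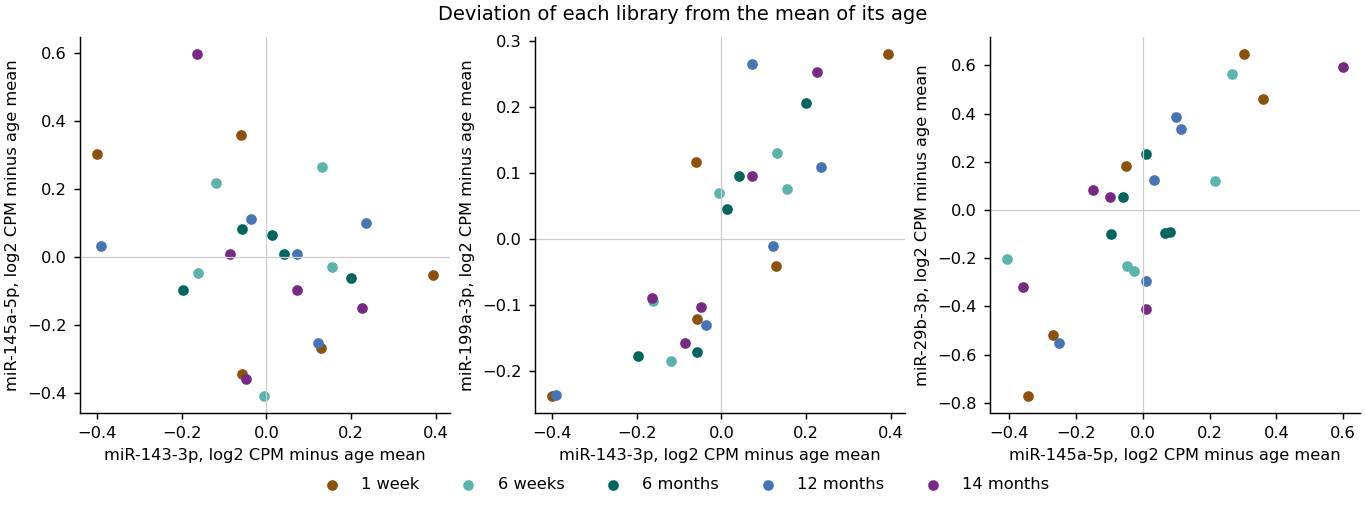
Log2 CPM minus the mean of the same age, per library (25 points, coloured by age), for miR-143-3p with miR-145a-5p (left), miR-143-3p with miR-199a-3p (middle) and miR-145a-5p with miR-29b-3p (right). The left points show no rising trend (r = -0.29), while the others rise together (r = 0.83 and 0.80).

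Among adults, the miR-145a arms were higher in deeper libraries. Over 20 adult libraries, log2 CPM of miR-145a-5p and log2 library total had Pearson's r = 0.66 (permutation test, adjusted p = 0.00710 over 5 relations) and Spearman's rho = 0.54 (permutation test, adjusted p = 0.0436). r was 0.49 without the 2 libraries farthest from the median depth and 0.59 with the age means removed. The permutations, here and below, moved libraries across the adult ages, so their p does not separate depth from age. Values of r with the age means removed were not tested. For miR-145a-3p r was 0.57 and rho 0.53 (permutation tests, adjusted p = 0.0242 and 0.0436), and r was 0.47 and 0.40 under the same changes. miR-143-3p had r = 0.30 and rho = 0.39 (permutation tests, adjusted p = 0.254 and 0.150). The ratio of the guides had r = -0.49 and rho = -0.27 (permutation tests, adjusted p = 0.0468 and 0.310), with r = -0.23 without those 2 libraries, so this relation rests on them. The ratio of the miR-145a arms had r = -0.054 (permutation test, adjusted p = 0.822). Library totals were 839642 to 3778798 counts at 12 months and 641579 to 1738208 at 6 weeks, so depth moved with the adult comparison above. The shallowest 12-month library, of mouse 16, had 611 CPM of miR-145a-5p, against 544 CPM in the deepest 6-week library, of mouse 10. The deepest adult library, of the 14-month mouse 25, was the one with 873 CPM.

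**Figure D5:**
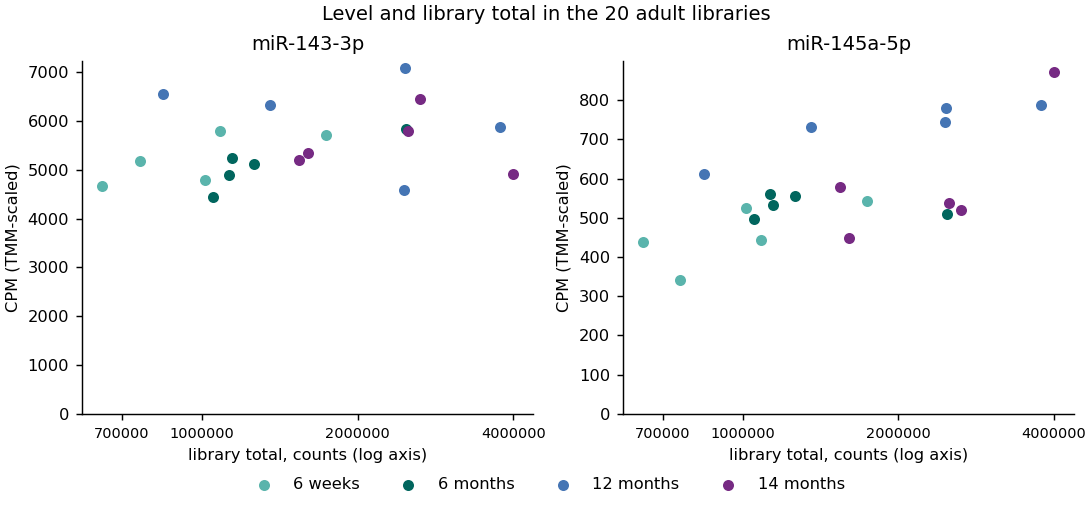
CPM of miR-143-3p (left) and miR-145a-5p (right, linear axes from 0) against library total (log axis) in the 20 adult libraries, coloured by age. miR-145a-5p is higher in deeper libraries (r = 0.66), and all 5 of the 12-month libraries lie at 611 CPM or more.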

How the data were processed

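The authors deposited a table of raw counts of 1493 entries in 25 libraries. Per the submitters' processing notes, Bowtie, edgeR and the build mm10 were used, without versions. Libraries were made with a QIAseq miRNA kit, per the labels. Whether counts are reads or unique molecular identifiers, the miRNA annotation and the mismatches allowed are not given in the sources used here. Library totals were 641579 to 6888928 counts, so intervals and tests of rare arms are the least precise. Among 50 pairs of libraries of 1 age, a chi-squared test gave at least 16.3 per degree of freedom, so none looked like a repeat.

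The counts were fitted with edgeR 4.0.16 (R 4.3.3, limma 3.58.1): filterByExpr (391 tested, 1102 not), TMM factors, 1 robust quasi-likelihood model of all 25 libraries, all 10 pairs of ages, Benjamini-Hochberg adjustment over tested entries. The biological coefficient of variation was 37.6%. Ratios and shares were tested by exact permutation, two-sided, and relations with depth with 100000 permutations (scipy 1.17.1). The fit was tested on simulated data with equal numbers of rises and falls, which cannot test how the calls depend on the scaling.

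Named were the members, the other arm and copy, the 5 miRNAs most like each member at a mean of at least 50 CPM, and members of 7 marker lists. The members, lists and tests were chosen with earlier results of these data known. Alternatives were other scalings (DESeq2 1.42.0 included), filters, subsets and a depth covariate. Sequences of the members are not reported here.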

Additional observations from a re-analysis of the deposited data

Results flagged for a closer look

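The ratio of miR-143-3p to miR-143-5p in the 6-month library of mouse 14 was 1121, with 749 as the next highest of the 5 libraries. That gap took up most of the range of its age. miR-143-5p had 10 counts in that library, so counting error is wide there. Among 35 groups of 5 libraries looked at, this was the only value to stand apart in this way, and chance sets apart about 1 group in 20.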

How the results depend on the processing

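No paired analysis was possible because no number is shared between ages. For miR-143-3p, the adjusted p over the 5 ages was 0.0979 with DESeq2's size factors in edgeR, 0.412 with library totals, 0.0665 with no filter and 0.0780 with DESeq2. Its log2 fold change at 6 weeks against 1 week was 0.22, 0.023, 0.36 and 0.22 under these 4 settings, without passing. A different test, over the adult ages alone, gave miR-143-3p an adjusted p of 0.280 (edgeR). With library totals its changes against 1 week reversed sign at 6 months (-0.15) and 14 months (-0.16), neither passing.

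For miR-145a-5p, the change at 6 weeks against 1 week was 0.37 with library totals. At 12 months against 6 weeks, the call of miR-145a-5p was lost with library totals (0.52), TMMwsp (0.68), no filter (0.76) and the depth covariate (0.45), and its values ran from 0.58 to 0.76 with 1 library left out. That of miR-145a-3p was lost with the same settings (0.64, 0.84, 0.92 and 0.78) and with TMM on totals less miR-122-5p (0.81), and ran from 0.76 to 0.95 with 1 library left out.

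Over the adult ages alone, 31 of 281 tested entries passed. Below, the number passing is of 391 tested entries unless another total is given, and of varying totals with 1 library left out. At 6 months against 6 weeks it was 3 with library totals, 2 with TMMwsp and 3 with the depth covariate, and 1 to 13 with 1 library left out. At 12 months against 6 weeks it was 40 with DESeq2, 8 with the covariate and 36 of 230 from these ages alone. With 1 library left out it was 15 to 37. At 14 months against 6 weeks it was 9 with TMMwsp, 24 of 1493 with no filter, 7 with the covariate and 28 of 246 from these ages alone. With 1 library left out it was 8 to 22. At 12 months against 6 months it was 3 of 1493 with no filter. At 14 months against 6 months it was 1 with the covariate and 0 to 1 with 1 library left out.

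With 1 library left out, the 7 shares that passed were lost in 14 of 175 repeats and the 19 ratios in 47 of 475. The ages stayed apart in these repeats, so the losses came from the coarser p of smaller tests or from the adjustment. All 19 ratios and 7 shares that passed missed the threshold when medians replaced means. With 5 libraries per age, the smallest p of a difference of medians lies just under 0.05 before adjustment. Practically no result could have passed after it, so this repeat does not bear on these calls. Leaving out each library and changes relative to the median were chosen after seeing the data for the likeness values and the scalings. So was counting the mesenchyme list without the miR-199b entries. The causes of these changes were not tested. Depth limits miR-143-5p most, at 5 to 22 counts per 6-week library.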
